A study of Homo sapiens with 6 samples.

Results

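GJA1, DSP, CDH2, CLDN1, PCDH7 and AMOTL1 are 6 of the 995 genes in an RNA-Seq table of PANC-1, an established line of human pancreatic ductal carcinoma. They were taken by symbol, as genes of cell junctions and cadherins that differ between control and STYK1-depleted cells, so their difference between the groups chose them and is described here without a test. RNA of 3 control and 3 shSTYK1 cultures was enriched for poly(A) and sequenced. The shSTYK1 cells carried a lentiviral pLKO.1-puro vector with an shRNA against STYK1, a receptor-like kinase, and were obtained by puromycin selection from which resistant clones were isolated and expanded. Neither the number of clones behind the sequenced cells nor which shRNA they carried is given in the sources used here, and the labels say of the other group only that it is the control. The 995 genes do not include STYK1, and the depletion itself is therefore not visible in the table.

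Epithelial cells are held together by several kinds of junction. Gap junctions are channels of connexins, desmosomes anchor intermediate filaments, adherens junctions are built on classical cadherins, and tight junctions seal the space between cells with claudins. In an epithelial-mesenchymal transition, cells lose E-cadherin and junction proteins and gain N-cadherin and matrix genes, a change known in pancreatic carcinoma. Angiomotins are scaffolds at these junctions that bind YAP, the effector of the Hippo pathway.

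The deposited scores give no level, so the values behind them were recovered by a whole-number search, which succeeded for 994 genes and for all 6 described here. A recovered value is a normalized expression value with 2 decimals whose unit is not stated, and levels are therefore compared within a gene only. A log2 fold change is shSTYK1 minus control on the log2(value + 1) scale, which understates the change of genes with low values. Of the 740 genes that reached a value of 1 in 3 or more libraries, 44.5% were lower and 51.2% were higher in shSTYK1 cells at an adjusted p-value under 0.05 in limma, or 95.7% in all, since the table holds genes that the authors selected for differing. In 93.7% of the 995 genes the groups did not overlap, with all shSTYK1 libraries below all control libraries in 48.1% and above them in 45.5%. All 6 genes passed the filter and the threshold, and their groups did not overlap, which says nothing beyond how the table and the genes were chosen. Control replicate 2 was the library farthest from its group mean in 210 of the 740 genes (28.4%), more often than any other library. In bulk RNA, fewer cells of a type and less RNA per cell cannot be told apart.

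The 6 genes were split into 5 that were lower and 1 that was higher in shSTYK1 cells. GJA1, DSP, CDH2, PCDH7 and AMOTL1 were lower, with log2 fold changes from -5.38 to -1.91. CLDN1 was higher, with a log2 fold change of 1.90. Among the 740 genes, GJA1 had the lowest log2 fold change, DSP ranked 5 from the bottom, CDH2 16, PCDH7 21 and AMOTL1 43, while CLDN1 ranked 11 from the top. These ranks describe how extreme the chosen genes are within a selected table.

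Promoter sequence is given for GJA1 and DSP, which came nearest to 0 in shSTYK1 cells, and for CLDN1, which differed in the opposite direction. Each is the 250 bases before the RefSeq start on GRCh38.p14, read 5′ to 3′ on the strand of the gene. Capitals mark matches to 4 motifs searched on both strands: CAGGTG (or CACCTG), the E-box bound by Snail and ZEB factors, TGANTCA for AP-1, CTTTGA (or TCAAAG), the core of TCF/LEF sites, and GGAATG (or CATTCC) for TEAD. The windows are chr6:121435396-121435645 on the plus strand for GJA1, chr6:7541421-7541670 on the plus strand for DSP and chr3:190322447-190322696 on the minus strand for CLDN1, and the GENCODE 29 model of each of these genes starts within its window.
GJA1: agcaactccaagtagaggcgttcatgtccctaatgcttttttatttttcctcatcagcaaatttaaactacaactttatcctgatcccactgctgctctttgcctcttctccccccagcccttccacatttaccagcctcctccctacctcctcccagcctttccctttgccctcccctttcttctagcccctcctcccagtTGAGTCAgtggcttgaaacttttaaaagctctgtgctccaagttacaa
DSP: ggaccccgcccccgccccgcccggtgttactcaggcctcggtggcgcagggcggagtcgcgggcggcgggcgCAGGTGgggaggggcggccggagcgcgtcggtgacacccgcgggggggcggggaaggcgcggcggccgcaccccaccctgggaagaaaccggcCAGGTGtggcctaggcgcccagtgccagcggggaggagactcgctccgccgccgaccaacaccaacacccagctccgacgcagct
CLDN1: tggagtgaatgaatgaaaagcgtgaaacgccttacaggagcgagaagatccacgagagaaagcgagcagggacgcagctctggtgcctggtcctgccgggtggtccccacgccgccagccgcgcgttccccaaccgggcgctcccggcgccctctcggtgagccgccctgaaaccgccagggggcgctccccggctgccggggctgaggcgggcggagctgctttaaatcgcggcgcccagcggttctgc
The GJA1 window held an AP-1 match starting 48 bases before the RefSeq start, and the DSP window held the E-box at 178 and 85 bases before it. By the GENCODE starts, the AP-1 match of GJA1 and the DSP match at 85 bases lie inside the gene, not before it. The PCDH7 window held a TCF/LEF core 199 bases before its start, and the windows of CDH2, CLDN1 and AMOTL1 held none of the 4. The CDH2 and AMOTL1 windows each lie before a RefSeq start inside the GENCODE gene, not before its first base. CDH2 has 2 RefSeq starts, and its window was taken at the first one listed, so the other was not searched. Of 35116 promoter windows of the same length, 17.5% held the E-box, 6.57% AP-1, 11.2% the TCF/LEF core and 11.9% the TEAD motif. The GC content was 48% in GJA1 and 78% in DSP, against a median of 58% over all windows, and 94.3% of windows had a lower GC content than that of DSP. A match describes letters in a window and is not a binding site, and no relation to the values was tested.

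GJA1 (ENSG00000152661, chromosome 6, 121435577 to 121449727, plus strand, GRCh38) encodes connexin 43, the most widely expressed gap junction channel protein. Its recovered values were 44.54, 43.65 and 46.49 in the control libraries and 0.10, 0.03 and 0.19 in the shSTYK1 libraries. The control libraries lay close together, and every shSTYK1 library was close to 0. The group means were 44.9 ± 1.45 and 0.107 ± 0.0802 (SD, n = 3), with a log2 fold change of -5.38 (standard error 0.12). The lowest control library was 230-fold above the highest shSTYK1 library. The recovered values have 2 decimals, the SD of the shSTYK1 values was 75.2% of their mean, and the size of the ratio is therefore imprecise. GENCODE 29 lists a processed pseudogene of GJA1, GJA1P1, and how the authors counted reads that match both is not stated.

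DSP (ENSG00000096696, chromosome 6, 7541575 to 7586717, plus strand) encodes desmoplakin, which ties the desmosomal plaque to intermediate filaments. The control libraries had 12.43, 13.44 and 12.40 and the shSTYK1 libraries 0.04, 0.13 and 0.13. As in GJA1, the shSTYK1 libraries were all near 0, and the lowest control library was 95.4-fold above the highest of them. The log2 fold change was -3.64 (standard error 0.12). With a pseudocount of 0.1 in place of 1, it was -6.04 for DSP and -7.84 for GJA1, so these sizes depend on the number added before the logarithm.

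CDH2 (ENSG00000170558, chromosome 18, 27950966 to 28177446, minus strand) encodes N-cadherin, the cadherin that cells gain in an epithelial-mesenchymal transition. Its values were 22.84, 23.12 and 24.81 in the control libraries and 2.98, 2.58 and 3.05 in the shSTYK1 libraries. Unlike GJA1 and DSP, CDH2 kept a level well above 0 in every shSTYK1 library. The group means were 23.6 ± 1.07 and 2.87 ± 0.254 (SD, n = 3), a ratio of 8.22, with a log2 fold change of -2.67 (standard error 0.12).

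PCDH7 (ENSG00000169851, chromosome 4, 30720415 to 31146805, plus strand) encodes a protocadherin, a cadherin that lacks the catenin-binding tail of the classical cadherins. Its values were 7.65, 9.37 and 7.91 in control and 0.53, 0.88 and 0.55 in shSTYK1 libraries. Replicate 2 was the highest library in both groups, and no shSTYK1 library reached the control range. The log2 fold change was -2.50 (standard error 0.14).

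AMOTL1 (ENSG00000166025, chromosome 11, 94706431 to 94876753, plus strand) encodes angiomotin-like 1, a scaffold of tight junctions that binds YAP. Control libraries had 7.44, 8.52 and 7.23 and shSTYK1 libraries 1.42, 1.22 and 1.30. The shSTYK1 libraries were nearly equal, and the log2 fold change was -1.91 (standard error 0.12). Antisense genes overlap CDH2, PCDH7 and AMOTL1 in GENCODE 29. None of them is among the 995 genes, and whether the counting used strand is not stated.

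CLDN1 (ENSG00000163347, chromosome 3, 190305701 to 190322475, minus strand) encodes claudin-1, a strand protein that seals tight junctions. It had 12.46, 11.81 and 14.40 in control and 51.97, 46.72 and 53.35 in shSTYK1 libraries. Every shSTYK1 library was at least 3.24-fold above the highest control library, and replicate 2 was the lowest and replicate 3 the highest in both groups. The means were 12.9 ± 1.35 and 50.7 ± 3.50 (SD, n = 3), with a log2 fold change of 1.90 (standard error 0.13). When the libraries were scaled to median-of-ratios size factors instead, the median log2 fold change of all 740 genes went from 0.54 to 0.30. CLDN1 was then at 1.51, still higher in shSTYK1 cells. Such factors assume that most genes do not differ, while 95.7% of the genes tested here were called. This scaling therefore shows how far a value depends on it and does not correct the value.

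**Figure D1:**
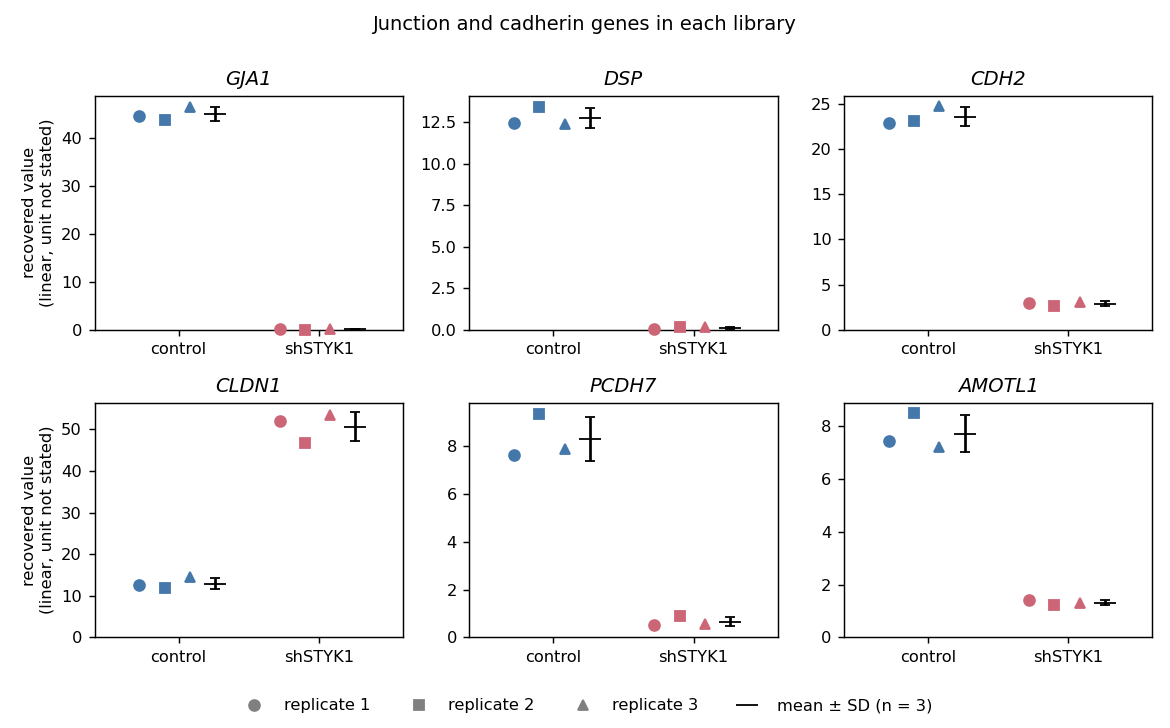
Recovered value (linear scale from 0, unit not stated) of the 6 genes in each library, with symbols for the replicates and a bar for the group mean ± SD (n = 3). In 5 genes the shSTYK1 libraries lie below all control libraries, GJA1 and DSP at nearly 0, and in CLDN1 they lie above.

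Replicates of a group lay close together in most of these genes on the log2(value + 1) scale. The SD within the control group ranged on that scale from 0.0454 in GJA1 to 0.140 in PCDH7, against a median of 0.203 over the 740 genes. Within the shSTYK1 group it ranged from 0.0626 in AMOTL1 to 0.166 in PCDH7, against a median of 0.156. This scale compresses values near 0. On the linear scale the shSTYK1 SD was 75.2% of the mean in GJA1, 52% in DSP and 30.1% in PCDH7. In CLDN1, AMOTL1 and CDH2 it was from 6.9% to 8.84%. Control replicate 2 was the highest control library in DSP, PCDH7 and AMOTL1 and the lowest in GJA1 and CLDN1, so the genes did not deviate together in that library. Leaving out each library in turn moved the log2 fold changes only slightly, from -5.43 to -5.33 in GJA1, from -2.70 to -2.61 in CDH2 and from 1.84 to 1.97 in CLDN1.

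The other genes of the same junctions were taken from 6 lists written from pathway knowledge, with 259 symbols of connexins and pannexins, desmosomal proteins, classical cadherins and catenins, protocadherins, tight junction proteins, and angiomotins with Hippo components. Besides the 6 genes, 15 of these symbols are in the table. Their groups did not overlap in any of the 15, with 7 lower and 8 higher. Over the 995 genes the groups did not overlap in 93.7%, with 48.1% lower and 45.5% higher. Of the 9 that passed the filter on low values, 4 were called lower and 5 higher, against 44.5% lower and 51.2% higher over all genes tested. Most symbols of these lists, among them the other connexins and claudins, are not in the table and have no value here.

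In gap junctions and related channels, PANX2, which encodes a pannexin, was the only other gene of 25 symbols in the table. It rose, with means of 0.51 ± 0.173 in control and 1.64 ± 0.401 in shSTYK1 cells (SD, n = 3) and a log2 fold change of 0.80, opposite to GJA1. In desmosomes, PKP2, which encodes plakophilin 2, a plaque protein that binds desmoplakin, was the only other gene of 16 symbols. Its values were 8.71, 8.71 and 7.97 in control and 3.44, 2.54 and 2.68 in shSTYK1 libraries, and it fell in the same direction as DSP with a log2 fold change of -1.29. The desmosomal cadherins are not in the table.

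Among classical cadherins, the table holds 3 genes besides CDH2. CDH3, which encodes P-cadherin, had 0.89, 2.34 and 1.61 in control and 5.42, 5.15 and 4.24 in shSTYK1 libraries, and it rose with a log2 fold change of 1.22. CDH1, which encodes E-cadherin, the defining cadherin of epithelia, was below the filter on low values. It had 0.10, 0.27 and 0.28 in control and 0.94, 0.85 and 0.90 in shSTYK1 libraries, so that all shSTYK1 libraries were above all control libraries while each stayed below 1. When the fit was made without the filter, its adjusted p in limma was 0.00101. That fit called most of the 994 genes, 460 lower and 455 higher, so the call does not set CDH1 apart. CDH6, a type II cadherin, had 0.27, 0.30 and 0.38 in control and was listed at 0 in each shSTYK1 library. It was called lower in the same fit without the filter (limma, adjusted p = 0.00495). The cadherins thus differed in both directions, with CDH2 and CDH6 lower and CDH1 and CDH3 higher in shSTYK1 cells.

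Of 81 symbols of protocadherins and large cadherins, 5 besides PCDH7 are in the table, and they were also split. PCDH9 fell by 0.60 on the log2 scale, with means of 1.38 ± 0.104 and 0.58 ± 0.183. PCDH1 rose by 1.02, with means of 0.383 ± 0.0757 and 1.80 ± 0.294. PCDHB2, of the clustered protocadherins, rose by 0.77, with means of 1.15 ± 0.359 and 2.64 ± 0.287. Below the filter, PCDH10 had 0.07, 0.16 and 0.11 in control and was listed at 0 in each shSTYK1 library, and CDH23 had means of 0.15 ± 0.070 and 0.563 ± 0.0802. All these values are small, and no depth is known for them.

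In tight junctions, the other genes of 63 symbols in the table were CGNL1 and TJP3, both below the filter. TJP3, which encodes the scaffold ZO-3, had 0.21, 0.68 and 0.26 in control and 1.32, 0.73 and 1.16 in shSTYK1 libraries. Its control replicate 2 came close to the shSTYK1 range. CGNL1, which encodes the junction protein paracingulin, had 0.30, 0.44 and 0.43 in control and 0.07, 0.06 and 0.08 in shSTYK1 libraries, opposite to CLDN1.

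Of the Hippo list with 39 symbols, 3 genes besides AMOTL1 are in the table. TEAD2, a transcription factor that YAP binds, had 14.80, 18.00 and 15.53 in control and 7.35, 7.74 and 7.54 in shSTYK1 libraries, and it fell with a log2 fold change of -1.0. VGLL3, a cofactor of TEAD factors, fell by 1.24 on the log2 scale, with means of 1.53 ± 0.132 and 0.070 ± 0.0361. WWC3, of the KIBRA family that acts upstream in the pathway, rose by 1.20, with means of 4.91 ± 1.03 and 12.5 ± 0.341. A list of 24 symbols of common YAP/TEAD targets has 2 genes in the table, and both fell, in a table where 44.5% of the genes tested were called lower. CCN2 fell by 1.24 on the log2 scale, with means of 87.5 ± 8.13 and 36.3 ± 1.16. ANKRD1 fell by 2.06, with means of 11.3 ± 0.326 and 1.98 ± 0.540. The median of the 2 log2 fold changes was -1.65, beside 0.54 over all genes tested.

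**Figure D2:**
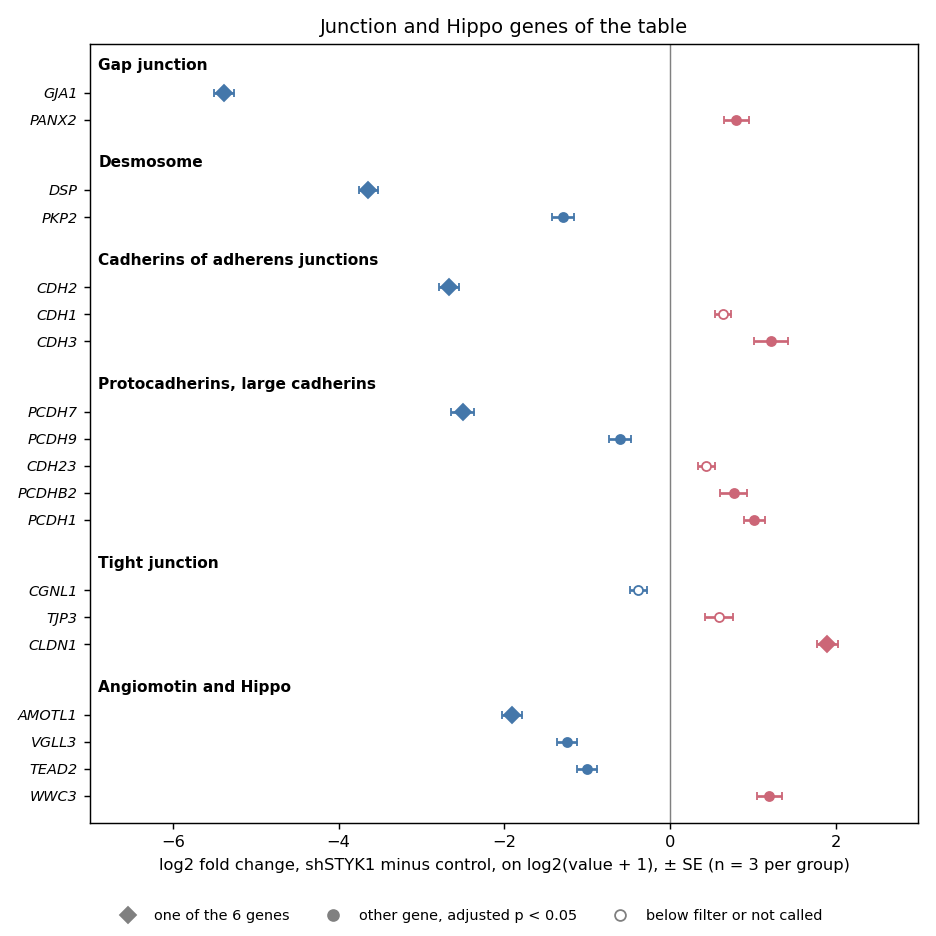
Log2 fold change (shSTYK1 minus control, on log2(value + 1)) ± SE of 19 junction and Hippo genes, grouped by list. Diamonds are the 6 genes and open symbols are below the filter, where the SE is that of the fit without a filter. CDH6 and PCDH10, listed at 0 in shSTYK1 cells, are not drawn. Both directions occur in each group but the desmosome, where DSP and PKP2 lie to the left.

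Whether these directions go with a shift between an epithelial and a mesenchymal state was described with a list for each state. Of the 6 genes, DSP and CLDN1 are in the epithelial list and differed in opposite directions, and CDH2, in the mesenchymal list, was lower. Of 69 epithelial symbols, 7 others are in the table. In 5 of these all shSTYK1 libraries were above all control libraries, in 0 were they all below, and in 2 the groups overlapped, beside 45.5% above and 48.1% below over the 995 genes. Of the 4 that passed the filter, 3 rose and 0 fell in limma at an adjusted p-value under 0.05, and 0 fell at an unadjusted p-value under 0.05. The shares over all genes tested were 51.2% higher and 44.5% lower, and the median log2 fold change of the 4 was 0.92, beside 0.54. CDH3 is described above. ITGB4, the β4 integrin of hemidesmosomes, had 12.88, 23.32 and 10.08 in control and 31.30, 42.51 and 31.67 in shSTYK1 libraries, a log2 fold change of 1.21. Control replicate 2 was well above the other control libraries in this gene. SPINT1, an inhibitor of membrane serine proteases, rose by 0.63 on the log2 scale, with means of 1.65 ± 0.412 and 3.07 ± 0.355. With median-of-ratios size factors, whose assumption this selected table does not meet, it was at 0.34 and no longer called (limma, adjusted p = 0.0714). ERBB3, a receptor tyrosine kinase, overlapped between the groups, at -0.44 on the log2 scale (limma, adjusted p = 0.103), and with the same size factors it was called lower, at -0.65 (limma, adjusted p = 0.0308).

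Of 83 mesenchymal symbols, 21 besides CDH2 are in the table. In 17 of these all shSTYK1 libraries were below all control libraries, in 3 they were all above, and in 1 the groups overlapped, beside the same 48.1% below and 45.5% above. Of the 15 that passed the filter, 11 fell and 4 rose, with a median log2 fold change of -0.97 beside 0.54 over all genes tested and shares of 44.5% lower and 51.2% higher. As the table was selected on these samples, the counts describe its genes and are no independent sign of a direction of the list.

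Fibrillar collagens were among the largest falls. COL1A1 had 26.73, 42.24 and 22.24 in control and 3.12, 3.73 and 2.94 in shSTYK1 libraries, a log2 fold change of -2.83. COL5A1 fell by 2.29 on the log2 scale, with means of 34.6 ± 13.0 and 5.96 ± 0.432. In both, control replicate 2 was the highest library. NRP2, a coreceptor for semaphorins and VEGF, fell by 2.40, with means of 8.01 ± 0.494 and 0.707 ± 0.133. ROR2, a receptor for WNT5A, had a log2 fold change of -1.91, and WNT5A itself one of -0.97. FOXC2, a transcription factor that can induce a mesenchymal state, fell by 1.42, with means of 9.30 ± 3.07 and 2.76 ± 0.533. MMP14, a membrane-bound matrix protease, fell by 1.24, with means of 1.61 ± 0.0777 and 0.11 ± 0.0458. TPM1, which encodes a tropomyosin of actin filaments, fell from 264 ± 1.73 to 132 ± 4.44. SNAI1, which encodes Snail, a repressor of CDH1, was named after its values were seen. It had 4.84, 9.05 and 4.44 in control and 2.36, 3.29 and 2.66 in shSTYK1 libraries, a log2 fold change of -0.87.

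The 4 mesenchymal genes that rose were LOXL1, COL6A1, COL6A2 and CALD1. LOXL1, which crosslinks elastin and collagen, had 0.90, 0.62 and 0.67 in control and 3.47, 8.96 and 4.38 in shSTYK1 libraries, a log2 fold change of 1.85. The type VI collagen genes COL6A1 and COL6A2 rose together, with log2 fold changes of 1.23 and 0.90, opposite to COL1A1 and COL5A1. CALD1, which encodes the actin-binding protein caldesmon, was at 0.66 on the log2 scale (limma, adjusted p = 0.0442), but control replicate 2, at 27.24, lay inside the shSTYK1 range. Its call was lost with median-of-ratios size factors (limma, adjusted p = 0.244), with quantile normalization (0.113), with a pseudocount of 0.1 (0.065), without the filter (0.0524) and when any library other than control replicate 2 was left out (0.0762 to 0.149). VIM, FN1, ZEB1, ZEB2 and TWIST1 among mesenchymal genes, and EPCAM, KRT8, KRT18 and KRT19 among epithelial genes, are not in the table and have no value here.

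**Figure D3:**
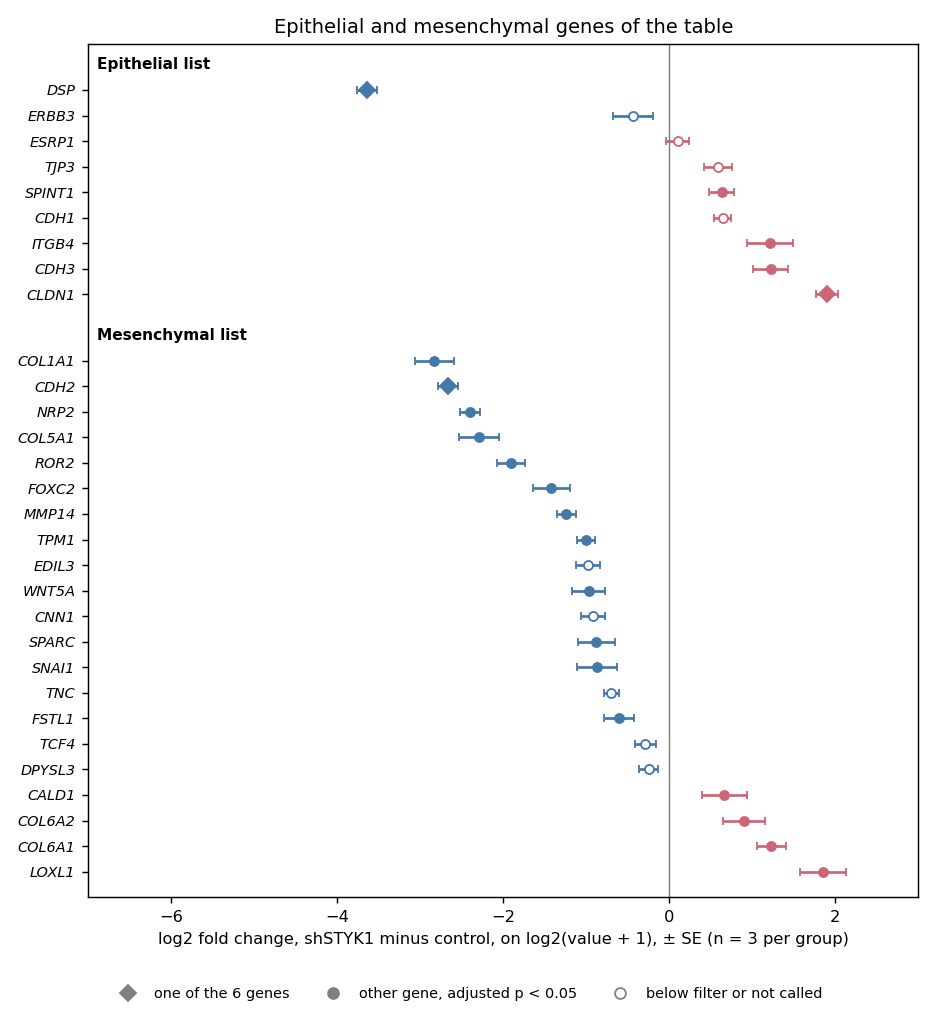
Log2 fold change (shSTYK1 minus control, on log2(value + 1)) ± SE of 9 epithelial and 21 mesenchymal genes of the table. Diamonds are DSP, CLDN1 and CDH2, open symbols are below the filter or not called, and FBN2, listed at 0 in shSTYK1 cells, is not drawn. DSP stands far to the left of the other epithelial genes, and most mesenchymal genes lie to the left of 0, with LOXL1, COL6A1, COL6A2 and CALD1 to the right.

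The labelled cell type could be checked only in part, since 2 of 20 symbols of pancreatic duct cells and ductal carcinoma are in the table. CA2, the carbonic anhydrase of duct cells, fell from 3.00 ± 0.111 to 0.42 ± 0.010, and GATA6, below the filter, had means of 1.08 ± 0.253 in control and 0.383 ± 0.0702 in shSTYK1 cells. Of 27 markers of other cell types, 3 are in the table. COL1A1, of fibroblasts, fell as given above. KDR, of endothelium, had 0.26, 0.54 and 0.44 in control and was listed at 0 in each shSTYK1 library. ITGAM, of myeloid cells, rose from 0.31 ± 0.0985 to 1.36 ± 0.276. A contribution of other cells to the results was not tested.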

How the data were processed

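The authors sequenced poly(A) RNA from 3 biological replicates each of control and shSTYK1 cells. The submitters' processing notes name GRCh38 (hg38), RSEM and DESeq2, without versions or roles. What the authors deposited is a score per gene and library, for 995 genes in 6 libraries, standardized so that every gene has mean 0 and SD 1 (computed with divisor 6). The depth per library is unknown, so no counting interval was computed.

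A whole-number search (Python 3.11.15, with numpy 2.4.6 and numba 0.67.0) looked for values of 2 decimals, with value + 1 no higher than 2000, whose standardized log(value + 1) matched the scores to 5e-12. Of 1640 recovered values of at least 5, 1.04% were within 0.001 of a whole number, so they are not read counts. The fit used limma 3.58.1 (R 4.3.3) on log2(value + 1). It was restricted to the 740 genes that reached 1 in 3 or more libraries, and p-values were adjusted by Benjamini-Hochberg. Both steps were tested on simulated data. The 6 genes and the 11 gene lists were chosen with earlier results of these data known.

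The genes named are the 6 genes, all table genes of the 6 junction lists, up to 8 called genes per direction with the largest log2 fold change of the epithelial and mesenchymal lists, up to 3 of the other lists, and, for each of the 6 genes, the 3 genes with the most similar scores and the nearest table genes. SNAI1, ERBB3, FBN2 and KDR fall outside this rule and were chosen knowing their values. Of the genes with similar scores, 2 are not reported here. Positions and overlaps are from GENCODE 29 and promoters from RefSeq (GRCh38.p14), which matched 6 of 6 genes. Alternatives were another pseudocount, other scalings, other filters, left-out libraries, a replicate block and a test of the deposited scores. The replicate numbers were not taken to pair the libraries, because deviations from the group means correlated at -0.22, 0.19 and 0.05 between libraries of the same number.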

Additional observations from a re-analysis of the deposited data

How the results depend on the processing

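The 6 genes kept their direction in every setting tried. They were chosen for differing and their groups lay far apart, so this outcome was fixed in advance and is no support for the difference. With a pseudocount of 0.1 the log2 fold change was -7.84 in GJA1, -6.04 in DSP, -3.0 in CDH2, -3.51 in PCDH7 and -2.47 in AMOTL1, larger by construction. With median-of-ratios size factors it was -5.53 in GJA1, -3.79 in DSP, -2.99 in CDH2, 1.51 in CLDN1, -2.71 in PCDH7 and -2.18 in AMOTL1, with the median of all genes lower by 0.25. These factors were computed from 874 genes of the selected table, most of which differ, so calls gained or lost with them show only a dependence on scaling. With quantile normalization it was -3.49 in DSP, 1.72 in CLDN1 and -1.81 in AMOTL1. A filter of at least 5 tests 327 genes and so called fewer, 130 lower and 194 higher, against 329 and 379. It tested 7 of the other mesenchymal genes, with 5 called lower and 2 higher, and 1 other epithelial gene, called higher. Without a filter, 5 of 7 other epithelial genes were called higher and 0 lower. Of 21 other mesenchymal genes, 15 were then called lower and 3 higher. Over all 994 genes, that fit called 460 lower and 455 higher. With median-of-ratios size factors 1 epithelial gene, ERBB3, was called lower, and leaving out each library gave 0 to 1 such genes, with the call when shSTYK1 replicate 3 was left out. The leave-one-out counts for the lists were added after the data were seen. With each library left out, the counts over all genes were 324 to 328 lower and 365 to 378 higher. With the replicate number as a block, 329 genes were called lower and 385 higher, and no call of the 6 genes changed. The number of libraries and the unknown depth limit the values near 0.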

Other observations

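The nearest genes of the table on each side of the 6 genes were looked up in GENCODE 29, at distances from 0.289 to 16.3 Mb. They are nearest within a selected table and need not be adjacent on the chromosome. Of the 12, 9 had a log2 fold change of the same sign as the gene looked up, a count that was not tested. It takes signs of any size, down to -0.13 in SESN3, and includes genes below the filter. The shares called over the 740 genes tested, 44.5% lower and 51.2% higher, are therefore not a like measure. On chromosome 3, ST6GAL1, 3.23 Mb from CLDN1, and DYNLT2B, 5.97 Mb on its other side, were higher like CLDN1, with log2 fold changes of 1.57 and 0.95. On chromosome 6, F13A1, 1.22 Mb from DSP, and BLOC1S5-TXNDC5, a read-through gene 0.295 Mb on its other side, were lower like DSP, F13A1 with a log2 fold change of -1.03. The control libraries of BLOC1S5-TXNDC5 had 1.08, 0.73 and 1.76, and each shSTYK1 library was listed at 0. The directions were mixed among the nearest table genes of GJA1, CDH2 and PCDH7. For GJA1, the log2 fold changes were 1.13 in MAN1A1 (2.09 Mb away) and -1.33 in PKIB (1.02 Mb). For CDH2 they were -0.58 in GATA6 (5.75 Mb) and 0.89 in MOCOS (8.01 Mb). For PCDH7 they were 0.76 in SEL1L3 (4.86 Mb) and -0.57 in C4orf19 (6.31 Mb). AMOTL1 had GAB2 on one side, 16.3 Mb away, with a log2 fold change of -1.14. On the other side was SESN3 at 0.289 Mb, whose values stayed below 1 in all libraries, with a log2 fold change of -0.13.

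By Pearson's r of the deposited scores over the 6 libraries, 2 of the 3 named genes most like GJA1 were CDH2 (r = 0.9996) and DSP (r = 0.9992), and the first was MAGEA6, a cancer-testis antigen (r = 0.9998). The genes most like DSP were IRS4 (r = 0.9995), CA2 (r = 0.9994) and GJA1, and the gene most like CDH2 was CYP1B1 (r = 0.9998). The genes most like CLDN1 were RBBP7 (r = 0.9995) and BEX2 (r = 0.9983), and those most like AMOTL1 were TSPYL5 (r = 0.9998) and IRS4 (r = 0.9990). For PCDH7, IGFBP7 had an r of 0.9982, and 2 genes nearer to it are not described. The libraries fall into 2 separate groups, so an r near 1 here says mainly that the difference between the groups is large beside the spread within them.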
